A study of Mus musculus with 18 samples.

Results

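The comparison described here is aldosterone against vehicle after 4 h in organ culture, 3 samples against 3 of the 18 in the series, followed across every probe set that was bright enough to read. All animals were wild-type C57Bl/6 males, and all had carried a spironolactone pellet under the skin, delivering 20 mg/kg/day for 5 days, before the aorta was removed. Spironolactone blocks the mineralocorticoid receptor, and since every group received it, the vehicle samples are spironolactone-pretreated vessels and not untreated ones. The excised aortas were then kept in DMEM with vehicle or with 100 nM aldosterone, and each sample was a pool of 3 aortas hybridised to its own 1-colour Affymetrix array. The other 12 samples are the same treatments at 2 and 8 h, with 3 pools in each of the 6 groups. Of 22690 probe sets, 64 were array controls, and 11538 of the rest (51%) had a log2 value above 4 in at least 3 of the 6 samples taken at 4 h. Of the 11538 probe sets kept, 10561 belonged to 1 gene, 414 to several genes and 563 had no gene listed in the annotation used here; together the 1-gene probe sets covered 6726 genes.

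Aldosterone enters cells and binds the mineralocorticoid receptor, a transcription factor held ready by Hsp90 chaperones until a ligand is bound; the receptor then moves to the nucleus and binds DNA. The glucocorticoid receptor is its closest relative, recognises the same kind of DNA element and can also be bound by aldosterone at high concentration, so many target genes are common to both. In the kidney the hormone raises sodium uptake through kinases such as Sgk1, and the receptor is also present in the smooth muscle and endothelium of blood vessels. Which receptor carried the changes given below was not tested, because no group received a receptor blocker in culture. In whole tissue, fewer cells of a type and less RNA per cell cannot be told apart.

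The 6 arrays at 4 h were alike as a set. Array medians ran from 4.03 to 4.09 on the log2 scale, correlations over the probe sets kept were 0.984 to 0.990 within groups and 0.982 to 0.992 between groups, and the median SD was 0.166 in vehicle and 0.158 with aldosterone. The library labelled vehicle 2 h replicate 1 stood apart from its group, with a median of 4.42 and 1487 probe sets (12.9%) more than 1 log2 unit from the mean of its group mates. It is not among the 6 samples compared, but the 6 groups share 1 estimate of spread per probe set, so counts of calls over all probe sets are given with and without it. The gap between 3' and 5' control signals, which widens when RNA is broken, was 0.490 to 0.790 log2 units for Gapdh in vehicle and 0.462 to 0.746 with aldosterone (exact two-sided permutation test, p = 0.5, where 0.1 is the smallest possible). For beta-actin the gap was wider, 1.89 to 2.13 in vehicle and 1.84 to 2.08 with aldosterone (exact two-sided permutation test, p = 0.7).

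The tissue read as aortic wall. All 11 smooth muscle markers and all 8 fibroblast markers were measured, with mean levels of 10.2 to 10.4 and 10.9 to 11.2 in the vehicle samples and 10.1 to 10.4 and 10.9 to 11.4 with aldosterone. Of the endothelial markers 9 of 11 were measured, at 6.53 to 6.86 in vehicle and 6.41 to 6.77 with aldosterone. For macrophages 7 of 11 were measured, at 6.90 to 7.36 in vehicle, and at 7.29, 6.84 and 6.56 in aldosterone replicates 1, 2 and 3. No skeletal muscle, Schwann cell or mesothelial marker passed the filter, while 2 of 6 cardiac, 2 of 8 lymphocyte and 2 of 7 red blood cell markers did. Not all listed markers had a 1-gene probe set on the array. Those that did were 4 of 7 for Schwann cells, 4 of 5 mesothelial, 7 of 8 lymphocyte, 3 of 7 red blood cell and 9 of 11 fat cell markers. Fat cell markers were uneven: the mean of the 7 measured of 11 was 8.79, 9.00 and 8.92 in vehicle, and 9.94, 9.04 and 8.64 with aldosterone. Ucp1, the uncoupling protein of brown fat, was at 8.92 in aldosterone replicate 1 and between 6.02 and 6.78 in the other 5 samples. Of the 48 marker genes measured, 0 passed the test between the treatments (limma), and 0 had an unadjusted p under 0.05.

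After 4 h of aldosterone, 27 probe sets differed from vehicle at an adjusted p under 0.05 (limma with Benjamini-Hochberg adjustment), which is 0.234% of the 11538 tested. The change was almost entirely upward: 26 were higher (0.225%) and 1, Krt18, was lower (0.00867%). The rises included established corticosteroid-induced genes (Fkbp5, Zbtb16, Klf9, Per1 and Sgk1), the metallothioneins Mt1 and Mt2, the secreted factors Pgf and Ccn2, and Birc2, Sphk1, Tob2, Ralb and Trpv2, which are described singly. The 27 probe sets stood for 21 genes, 4 of which (Klf9, Mt1, Tob2 and Slc45a3) had more than 1 called probe set; the other 2 probe sets had no gene listed. Sizes ran from 0.50 to 2.19 log2 units, where 1 unit is a doubling, against a 5th to 95th percentile of -0.30 to 0.35 and a median of 0.01 over all probe sets kept. At an unadjusted p under 0.05 there were 423 probe sets (3.67%), and 763 (6.61%) without vehicle 2 h replicate 1. In each of the 27 the 3 aldosterone values lay all on one side of the 3 vehicle values, a separation that 10.5% of all probe sets tested showed (5.62% with aldosterone above and 4.84% with it below). In 7 of the 27 the probe set's name ends in _x_at or _s_at, which marks probes that can be shared with other transcripts. These are the calls for Zbtb16, Ralb, Eif2b2 and Pelp1, both of those for Slc45a3 and the brighter one for Mt1.

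**Figure D1:**
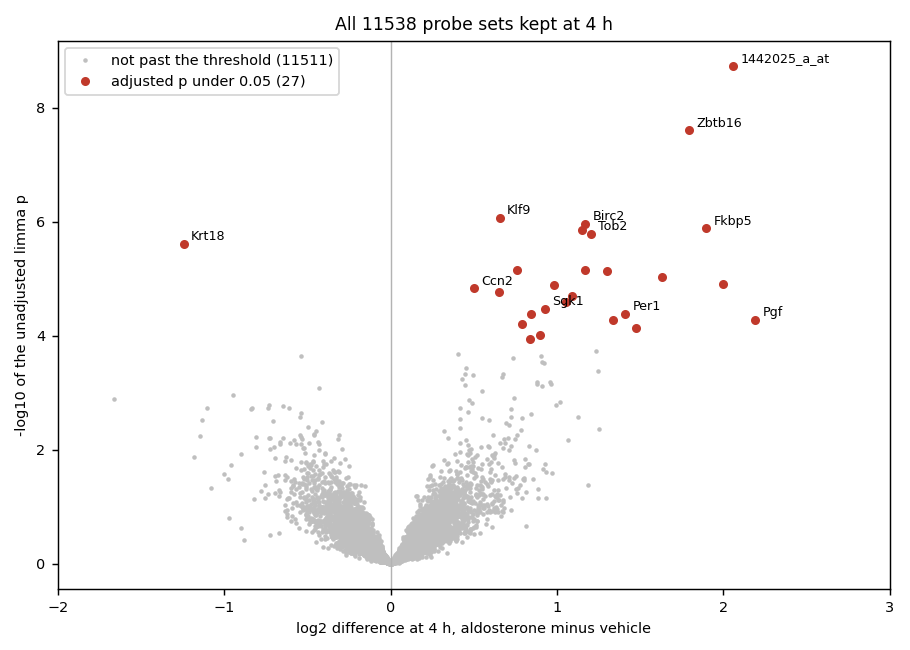
Each point is 1 of the 11538 probe sets kept, placed by its log2 difference at 4 h (aldosterone minus vehicle, horizontal axis) and by -log10 of its unadjusted limma p (vertical axis, a log scale). Red points passed an adjusted p of 0.05: 26 lie to the right of 0 and 1, Krt18, to the left.

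How many probe sets passed depended on single libraries. Without vehicle 2 h replicate 1 the fit called 50 (0.433%), 46 of them higher (0.399%) and 4 lower (0.0347%), and these held all 27. Leaving out a sample of the comparison itself could lower the count: the fit called 17, 8 or 9 when aldosterone 4 h replicate 1, 2 or 3 was dropped, and 10 when vehicle 4 h replicate 3 was. A fit to the 6 samples of 4 h alone, which leaves little to estimate the spread from, gave 14. In each alternative setting that tested them, 8 of the 27 calls were retained. Zbtb16, Fkbp5, Birc2, Sphk1 and Krt18 were tested in 28 settings. Klf9 1428289_at, Tob2 1417310_at and the unnamed 1442025_a_at were tested in 27, since none of the 3 enters the fit with 1 probe set per gene.

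**Figure D2:**
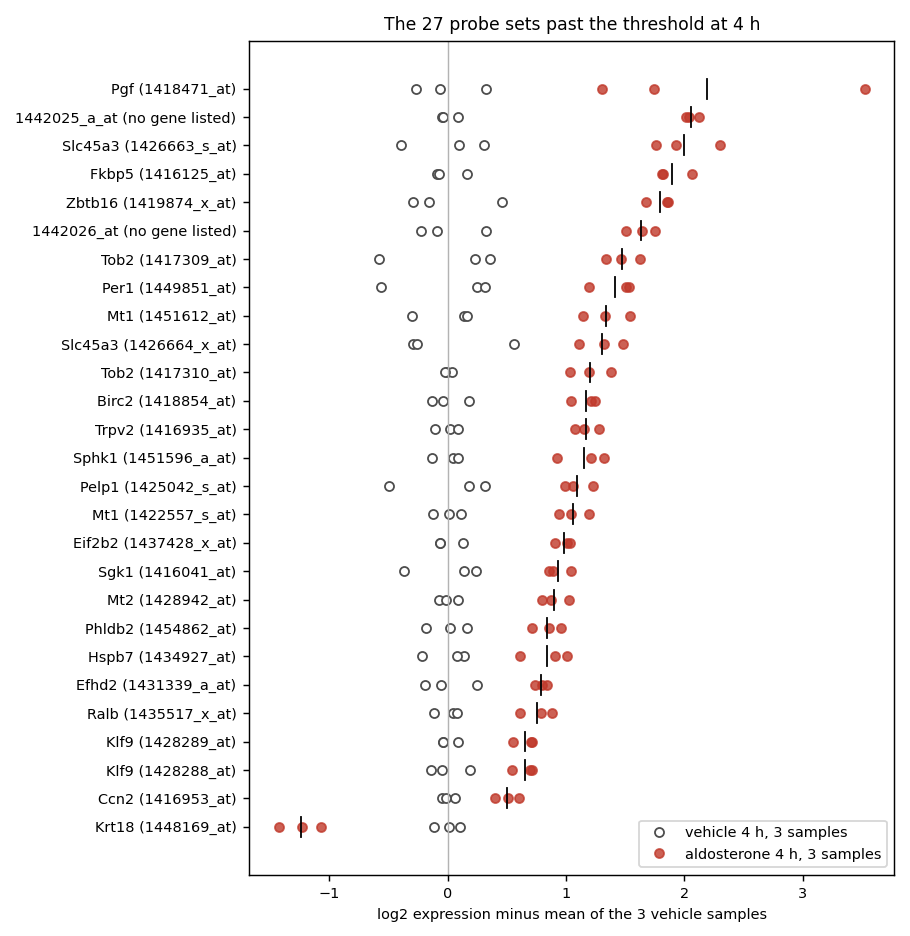
Every sample of the 27 called probe sets is shown as its log2 value minus the mean of the 3 vehicle samples at 4 h (horizontal axis); open circles are vehicle, filled circles aldosterone, and black bars the mean of the 3 aldosterone samples. The 2 colours do not overlap in any row, most rows have tight groups, and Pgf has the widest spread, with replicate 2 far to the right of the other two aldosterone samples.

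Fkbp5 encodes the Hsp90 co-chaperone FKBP51, which lowers the affinity of corticosteroid receptors for their ligand and is itself induced by them. Its log2 level was 5.89, 6.16 and 5.92 in the vehicle samples and 8.05, 7.80 and 7.81 with aldosterone. The groups were 1.90 ± 0.26 apart (SE), a 3.73-fold rise with a 95% interval of 2.54 to 5.46 (adjusted p = 0.00267). Zbtb16, the zinc finger transcription factor PLZF, was at 7.59, 7.72 and 8.34 in vehicle and at 9.74, 9.55 and 9.73 with aldosterone, 3.47-fold higher (1.80 ± 0.19, adjusted p = 0.000144). Here vehicle replicate 3 was the highest of its group and still more than 1 log2 unit below every aldosterone sample. Another Zbtb16 probe set, 1427638_at, gave a difference of 1.13 without passing (adjusted p = 0.438).

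Klf9, a Krüppel-like transcription factor that corticosteroids and thyroid hormone induce, had 6 probe sets past the filter and all 6 were higher with aldosterone. Probe set 1428289_at was at 10.97, 11.10 and 10.97 in vehicle and 11.71, 11.72 and 11.56 with aldosterone (0.65 ± 0.09, 1.57-fold, adjusted p = 0.00267). Probe set 1428288_at was at 11.33, 11.57 and 11.24 against 11.92, 12.10 and 12.08, the same 1.57-fold rise (adjusted p = 0.0125). The other 4 differed by 0.42 to 1.19 and did not pass. The brightest of them, 1456341_a_at, which stands for Klf9 in the gene lists, gave 0.50 ± 0.12 (adjusted p = 0.147), so in the lists Klf9 counts as not called. The call for 1428288_at was lost without vehicle 4 h replicates 1 or 3 or aldosterone 4 h replicates 2 or 3, with differences of 0.58 to 0.75 over all settings tried.

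Sgk1, the serum- and glucocorticoid-induced kinase that keeps the epithelial sodium channel at the cell surface in the kidney, was 1.90-fold higher (0.93 ± 0.17, adjusted p = 0.0206). The vehicle samples were at 11.39, 11.50 and 10.89 and the aldosterone samples at 12.15, 12.30 and 12.12. Vehicle replicate 3 was the lowest of the 6; without it the difference was 0.74 (adjusted p = 0.14). The call was also lost without any 1 of the 3 aldosterone samples, with adjusted p up to 0.148. Sgk1 is the only gene among those called whose promoter window held a full palindrome of the kind corticosteroid receptors bind (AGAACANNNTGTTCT). The window is the 250 bases before 1 of its 6 listed start sites, at chr10:21993640-21993889 on the plus strand of GRCm38.p6, taken from RefSeq and shown because it carries that element; capitals mark the palindrome, whose 5' end lies at -189 from the start.
Sgk1: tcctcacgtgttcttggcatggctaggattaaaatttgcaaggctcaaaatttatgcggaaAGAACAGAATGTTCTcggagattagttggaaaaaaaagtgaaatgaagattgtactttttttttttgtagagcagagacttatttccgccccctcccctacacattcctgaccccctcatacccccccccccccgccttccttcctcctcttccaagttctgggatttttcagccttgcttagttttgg

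Across all RefSeq promoter windows of this length, 3 of 32851 held the palindrome on either strand (0.00913%). Of the 21 called genes, 19 were matched in the promoter table, with 34 start sites; Zbtb16 and Ccn2 were not. Its 6-base arms alone, AGAACA or the reverse complement TGTTCT, were in 16.1% of all windows. They were in 4 of the 34 windows of called genes, those of Sgk1 and Trpv2. By gene, an arm was in 2 of 19 against 18.2% of all genes. In the Sgk1 window shown, a further TGTTCT at -242 shares bases with a CACGTG at -246. A match of letters is a description of the window and not a measured binding site.

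Per1, a repressor of the circadian clock that corticosteroids induce directly, was at 6.20, 6.27 and 5.38 in vehicle and at 7.49, 7.46 and 7.15 with aldosterone. The rise was 2.66-fold (1.41 ± 0.26, adjusted p = 0.0228). Vehicle replicate 3 was again the lowest sample, and without it the difference was 1.13 (adjusted p = 0.161); the call was lost as well without aldosterone 4 h replicates 1, 2 or 3, with adjusted p of 0.0593 to 0.148. Of the 15 measured genes of the clock list, Per1 was the 1 that rose and 0 fell. The list median was 0.08 beside 0.01 over all 6726 genes. Of those 6726 genes, 0.238% rose and 0.0149% fell, the shares to set beside each list count below. Per2, a paralogue of Per1, was at 7.90, 7.62 and 7.50 against 8.49, 8.33 and 8.25, a difference of 0.68 without passing (adjusted p = 0.726). The output factor Tef gave 0.50 ± 0.19 and Hlf 0.38 ± 0.36, neither past the test. The E-box CACGTG, through which clock proteins act, was found in 6.02% of all promoter windows and in 7 of the 34 windows of called genes, belonging to Fkbp5, Pelp1, Per1, Ralb, Sgk1 and Sphk1. The Sphk1 windows overlap and share the element. By gene, the E-box was in 6 of the 19 called genes matched, against 6.86% of all genes. In 1 of the 2 Per1 windows, chr11:69098699-69098948 on the plus strand of GRCm38.p6, it lies at -166; the window is shown for this element, in capitals.
Per1: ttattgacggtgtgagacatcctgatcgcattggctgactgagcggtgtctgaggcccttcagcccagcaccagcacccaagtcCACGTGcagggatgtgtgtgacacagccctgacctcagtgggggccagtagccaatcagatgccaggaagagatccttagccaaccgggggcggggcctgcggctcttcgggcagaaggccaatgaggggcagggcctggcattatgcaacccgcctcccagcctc

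Mt1 and Mt2 encode metallothioneins, small cysteine-rich proteins that bind zinc and copper and that both metals and corticosteroids induce. Mt2 was at 13.02, 13.07 and 13.17 in vehicle and 14.11, 13.96 and 13.88 with aldosterone, 1.86-fold higher (0.90 ± 0.18, adjusted p = 0.0434). The bright Mt1 probe set was at 12.88, 13.01 and 13.11 against 14.04, 14.20 and 13.94, a 2.08-fold rise (1.06 ± 0.19, adjusted p = 0.0163). A dim Mt1 probe set, 1451612_at, was at 5.93, 5.49 and 5.96 against 7.34, 7.12 and 6.93, a 2.53-fold rise (adjusted p = 0.0269). All 3 probe sets separated the groups by more than the spread within either. None of the calls held when any 1 of the 6 samples of 4 h was left out, although the differences stayed between 0.83 and 1.44 over the settings tried; adjusted p reached 0.231 for Mt2 and 0.188 for Mt1. Mt2 was also not called without aldosterone 2 h replicates 1 or 3, vehicle 8 h replicate 2 or any aldosterone 8 h sample, which left its difference at 0.90 and gave adjusted p up to 0.0749. The zinc transporters Slc39a14 and Slc30a1 were at 0.18 ± 0.14 and 0.06 ± 0.14, so that 2 of the 5 measured genes of the metallothionein and zinc list rose and 0 fell.

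Metal response elements were counted with the 7-letter core TGCACNC or TGCGCNC and their reverse complements GNGTGCA and GNGCGCA, a motif added after the results were known. They were in 21.4% of all promoter windows and in 10 of the 34 windows of called genes, 9 of 19 genes against 23.8% of all genes. The windows of Mt1 (chr8:94178839-94179088, plus strand) and Mt2 (chr8:94172368-94172617, plus strand), both GRCm38.p6, are shown with matches to this core in capitals. The Mt1 window has 1 match, at -23 from the listed start, and the Mt2 window has 3, at -223, -128 and -50. Bases outside the windows were not searched, and a match of letters is not a measured binding site.
Mt1: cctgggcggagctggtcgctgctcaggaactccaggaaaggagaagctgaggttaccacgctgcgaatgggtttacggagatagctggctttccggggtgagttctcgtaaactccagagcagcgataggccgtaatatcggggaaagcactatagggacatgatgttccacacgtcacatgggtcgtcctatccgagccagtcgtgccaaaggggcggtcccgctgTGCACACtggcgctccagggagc
Mt2: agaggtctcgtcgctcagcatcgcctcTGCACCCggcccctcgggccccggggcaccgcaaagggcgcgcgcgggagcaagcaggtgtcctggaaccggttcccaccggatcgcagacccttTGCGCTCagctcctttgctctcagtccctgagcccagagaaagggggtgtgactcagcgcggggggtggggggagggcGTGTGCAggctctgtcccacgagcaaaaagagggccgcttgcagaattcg

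2 secreted factors rose. Pgf encodes placental growth factor, which signals through Flt1. It was at 5.23, 5.43 and 5.82 in vehicle and at 6.80, 9.03 and 7.24 with aldosterone, 4.57-fold higher with a wide 95% interval of 2.51 to 8.32 (adjusted p = 0.0269). Aldosterone replicate 2 was far above the other two; without it the difference was 1.52 (adjusted p = 0.0663). The Pgf call was lost also without any 1 vehicle sample at 4 h or without aldosterone replicate 3, with adjusted p up to 0.188. Of the 10 measured VEGF ligands and receptors Pgf was the 1 that rose, and the list median was -0.14; the coreceptor Nrp1 was at 10.03, 10.01 and 9.98 against 9.74, 9.48 and 9.50 without passing (-0.43 ± 0.15, adjusted p = 0.861).

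Ccn2, connective tissue growth factor, a matrix-associated protein linked to fibrosis, was at 14.02, 13.91 and 13.94 in vehicle and at 14.36, 14.56 and 14.46 with aldosterone. This was the smallest of the called differences, 0.50 ± 0.08 or 1.42-fold (adjusted p = 0.0113), in a probe set near the top of the array's range with an SD of 0.06 in vehicle. It was not called without vehicle 4 h replicates 2 or 3 or aldosterone 4 h replicates 2 or 3, with adjusted p of 0.0561 to 0.105. Of the 22 measured extracellular matrix and fibrosis genes, 1 rose and 0 fell, with a list median of 0.01. Lox and Loxl1, which crosslink collagen and elastin, gave 0.36 ± 0.18 and 0.31 ± 0.15 without passing, and Timp3, a metalloproteinase inhibitor, gave -0.24 ± 0.11.

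Birc2 encodes the apoptosis inhibitor cIAP1, a ubiquitin ligase of tumour necrosis factor signalling. It was at 7.34, 7.43 and 7.65 in vehicle and 8.72, 8.52 and 8.69 with aldosterone, 2.25-fold higher (1.17 ± 0.16, adjusted p = 0.00267). Among the 14 measured genes of the apoptosis list it was the 1 that rose, 0 fell, and the median was 0.07. Bcl2l1, which encodes the survival protein Bcl-xL, had its 3 kept probe sets above 0, by 0.15 to 0.74, with none past the test; the fourth lay below the filter, at -0.01. Sphk1 makes sphingosine-1-phosphate, a lipid signal of the vessel wall; it was at 8.33, 8.38 and 8.16 against 9.51, 9.62 and 9.21, a 2.22-fold rise (1.15 ± 0.16, adjusted p = 0.00267). Its other probe set, 1420566_at, gave 0.83 without passing. Spns2, the exporter of sphingosine-1-phosphate, was at 0.51 ± 0.19, and Sphk1 was the 1 of 13 measured genes of that pathway that rose.

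Tob2 belongs to a family of antiproliferative proteins that recruit an mRNA deadenylase. All 4 of its probe sets were higher with aldosterone, and 2 were called. Probe set 1417310_at was at 7.49, 7.53 and 7.47 in vehicle and 8.69, 8.88 and 8.53 with aldosterone (1.20 ± 0.17, 2.30-fold, adjusted p = 0.00272). Probe set 1417309_at was at 7.28, 7.41 and 6.47 against 8.52, 8.68 and 8.39 (1.48 ± 0.28, adjusted p = 0.0343); that call was lost in 12 of 27 settings, among them every sample of 4 h but vehicle replicate 2, aldosterone 2 h replicates 1 and 3 and aldosterone 8 h replicates 1 and 2, with adjusted p up to 0.245. The remaining 2, 1448666_s_at and 1448667_x_at, differed by 1.07 and 0.97 and were called when vehicle 2 h replicate 1 was left out (adjusted p = 0.000571 and 0.00332), as against 0.731 and 1 with it.

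Of the other genes that rose, Trpv2, a cation channel, was at 6.43, 6.30 and 6.50 in vehicle and 7.49, 7.69 and 7.56 with aldosterone (2.25-fold, adjusted p = 0.00765). Ralb, a Ras-like small GTPase, was at 7.88, 7.91 and 7.71 against 8.44, 8.71 and 8.62 (1.69-fold, adjusted p = 0.00765), and its other probe set gave 0.91 ± 0.20 (adjusted p = 0.0859, and 0.00297 without vehicle 2 h replicate 1). Slc45a3, a solute carrier, had both of its probe sets called, 1426664_x_at and 1426663_s_at, each with a name that marks probes other transcripts can share. One was at 6.01, 6.86 and 6.04 against 7.41, 7.78 and 7.62 (2.46-fold, adjusted p = 0.00765), and the other at 5.84, 6.06 and 5.35 against 7.51, 7.68 and 8.05 (3.99-fold, adjusted p = 0.0105). Vehicle replicate 2 was the highest vehicle sample in both, and the groups stayed apart. The calls for Trpv2 and Ralb were lost without aldosterone 4 h replicates 2 or 3, and those for Slc45a3 without either of these or vehicle replicate 3, with adjusted p no higher than 0.0832; Ralb was lost without vehicle replicate 3 as well, and 1 Slc45a3 probe set without vehicle replicate 1.

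5 further genes rose. Phldb2, which anchors microtubules at the cell edge, was at 9.98, 9.84 and 9.63 against 10.52, 10.67 and 10.77 (1.79-fold, adjusted p = 0.0228). Efhd2, a calcium-binding regulator of actin, was at 8.77, 9.08 and 8.64 against 9.57, 9.63 and 9.67 (1.73-fold, adjusted p = 0.03). Hspb7, a small heat shock protein of heart and muscle, was at 9.42, 9.36 and 9.07 against 9.89, 10.18 and 10.29 (1.79-fold, adjusted p = 0.0493). Its 2 other probe sets, at 1.02 and 0.71, were also above 0 and did not pass. Hspb7 lost its call in 19 of 28 settings, among them each of the 6 samples of 4 h left out in turn, each aldosterone sample of 2 h and 8 h, vehicle 2 h replicate 3 and vehicle 8 h replicate 2, with the difference between 0.73 and 0.95 and adjusted p up to 0.327; Efhd2 lost it in 13 and Phldb2 in 8. For Efhd2 and Phldb2 these included each of the 3 aldosterone samples and vehicle replicate 3 of 4 h, and beside them vehicle replicate 1 and each aldosterone sample of 8 h for Efhd2 and vehicle replicate 2 for Phldb2. With those left out, differences were 0.70 to 0.91 and adjusted p up to 0.222.

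Eif2b2, a subunit of the exchange factor that recharges the translation initiator eIF2, and Pelp1, a coregulator of nuclear receptors, were called on dim probe sets. Eif2b2 was at 5.46, 5.27 and 5.27 against 6.37, 6.34 and 6.24 on probe set 1437428_x_at (1.98-fold, adjusted p = 0.0105), and its 2 other probe sets gave 0.53 and 0.48 without passing. The one at 0.48, 1434538_x_at, was brighter, with means of 7.96 in vehicle and 8.45 with aldosterone. Pelp1 was at 4.72, 4.58 and 3.91 against 5.46, 5.39 and 5.63 (2.13-fold, adjusted p = 0.0137), and its other probe set lay below the filter in all 6 samples. Both calls were lost without vehicle 4 h replicate 3 or any 1 aldosterone sample of 4 h, with adjusted p of 0.0521 to 0.0977. At 8 h their differences were 0.15 and -0.15.

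**Figure D3:**
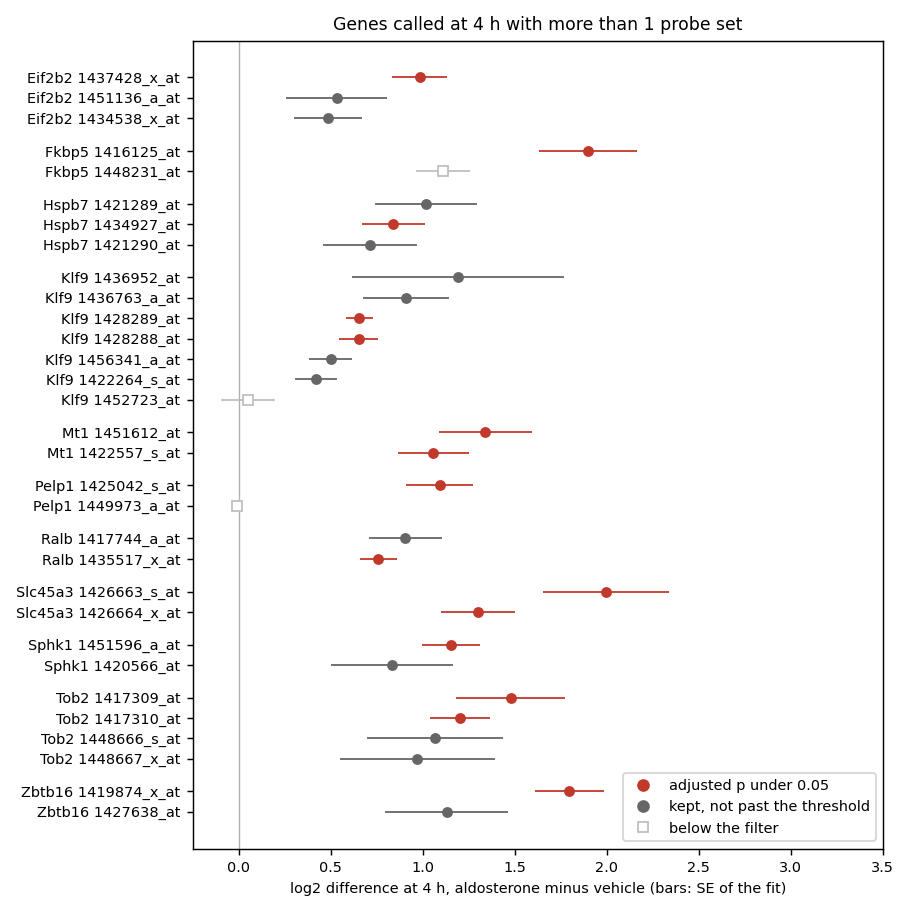
For the called genes with more than 1 probe set, points give the log2 difference at 4 h (aldosterone minus vehicle, horizontal axis) and bars the SE, here from a fit to all probe sets with no filter; red points were called, grey points were kept and not called, and open squares lay below the filter. All 13 kept probe sets that were not called lie on the same side of 0 as the called one of their gene.

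Krt18, a keratin of simple epithelia, was the 1 gene that fell. It was at 8.57, 8.69 and 8.79 in vehicle and 7.25, 7.61 and 7.45 with aldosterone, 0.422 of the vehicle level with a 95% interval of 0.325 to 0.549 (-1.24 ± 0.18, adjusted p = 0.00348). No sample came near the other group, and the call was retained in all 28 settings tried. Of the 6 keratins listed it alone passed the filter. Mesothelial markers did not pass the filter in these samples, and the cell type that carried the Krt18 signal was not tested.

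The most significant probe set of all, 1442025_a_at, has no gene in the annotation used here. It was at 8.00, 8.02 and 8.15 in vehicle and 10.09, 10.07 and 10.18 with aldosterone, 4.17-fold higher with a 95% interval of 3.21 to 5.41 (2.06 ± 0.18, adjusted p = 2.1e-05). Another unnamed probe set, 1442026_at, was at 6.16, 6.30 and 6.71 against 7.90, 8.04 and 8.14, 3.10-fold higher (adjusted p = 0.00904). The vehicle samples of 1442025_a_at had an SD of 0.078 and those of 1442026_at an SD of 0.286, above the median of 0.166 over all probe sets kept. Whether they read the same transcript was not tested. The call for 1442026_at was lost without vehicle 4 h replicate 1 or aldosterone 4 h replicates 2 or 3, with adjusted p of 0.0573 to 0.0663.

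Of the 33 measured genes of the corticosteroid target list, 6 rose (Fkbp5, Zbtb16, Per1, Mt1, Sgk1 and Mt2) and 0 fell, where 0.238% of the 6726 genes rose and 0.0149% fell. The list was chosen with earlier results of these data known, so its contrast with all genes can be partly built in. At an unadjusted limma p under 0.05 there were 15 of the 33, all higher. Of all probe sets tested, 3.67% reached that level in either direction. The list median was 0.32 beside 0.01 for all genes, 25 members were above 0 and 8 below, and in 18 all 3 aldosterone samples lay above the vehicle samples, which 5.96% of all genes did. Tsc22d3, the glucocorticoid-induced leucine zipper, was at 4.75, 3.52 and 4.55 against 5.84, 5.31 and 5.38 and did not pass (1.24 ± 0.26, adjusted p = 0.0771), though it did without vehicle 2 h replicate 1 (adjusted p = 0.0262). Slc10a6, a transporter of steroid sulfates, was at 5.68, 4.10 and 5.00 against 6.39, 6.31 and 5.82 (1.25 ± 0.38, adjusted p = 0.598). Dusp1, a phosphatase that turns off MAP kinases, gave 0.32 ± 0.10 and Pdk4, which restrains glucose oxidation, 0.54 ± 0.24, with neither past the test. For Pdk4, aldosterone replicate 1 was the highest sample at 11.41, beside 10.67 and 10.71 in replicates 2 and 3; this is the sample with the highest fat cell marker mean, whose part in the value was not tested. Angptl4, an inhibitor of lipoprotein lipase, was below 0 at -0.27 ± 0.17. Without vehicle 2 h replicate 1 the list had 8 risers and 0 fallers, where 0.416% of the 6726 genes rose and 0.0446% fell.

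Of the genes upstream of the response, those kept were near 0. No value is given for Nr3c2, the mineralocorticoid receptor gene, which is not among the genes kept. Nr3c1, the glucocorticoid receptor, was at 10.19, 10.16 and 9.91 against 9.75, 10.02 and 9.89 (-0.20 ± 0.15, adjusted p = 1), with its 3 probe sets between -0.22 and -0.07. Hsd11b1, which regenerates active glucocorticoid inside cells, gave 0.01 ± 0.22, and the chaperone genes Hsp90aa1 and Hspa8 gave -0.08 ± 0.13 and -0.07 ± 0.11. Of the 9 measured receptor and chaperone genes, Fkbp5 was the 1 that rose and the median was -0.04. Hsd11b2, which inactivates glucocorticoid in aldosterone-sensitive cells, did not pass the filter. In the renal sodium transport list, Sgk1 was the 1 riser of 9 measured genes; Edn1, endothelin, was at 0.31 ± 0.26 and Atp1b1, a sodium pump subunit, at 0.24 ± 0.16.

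**Figure D4:**
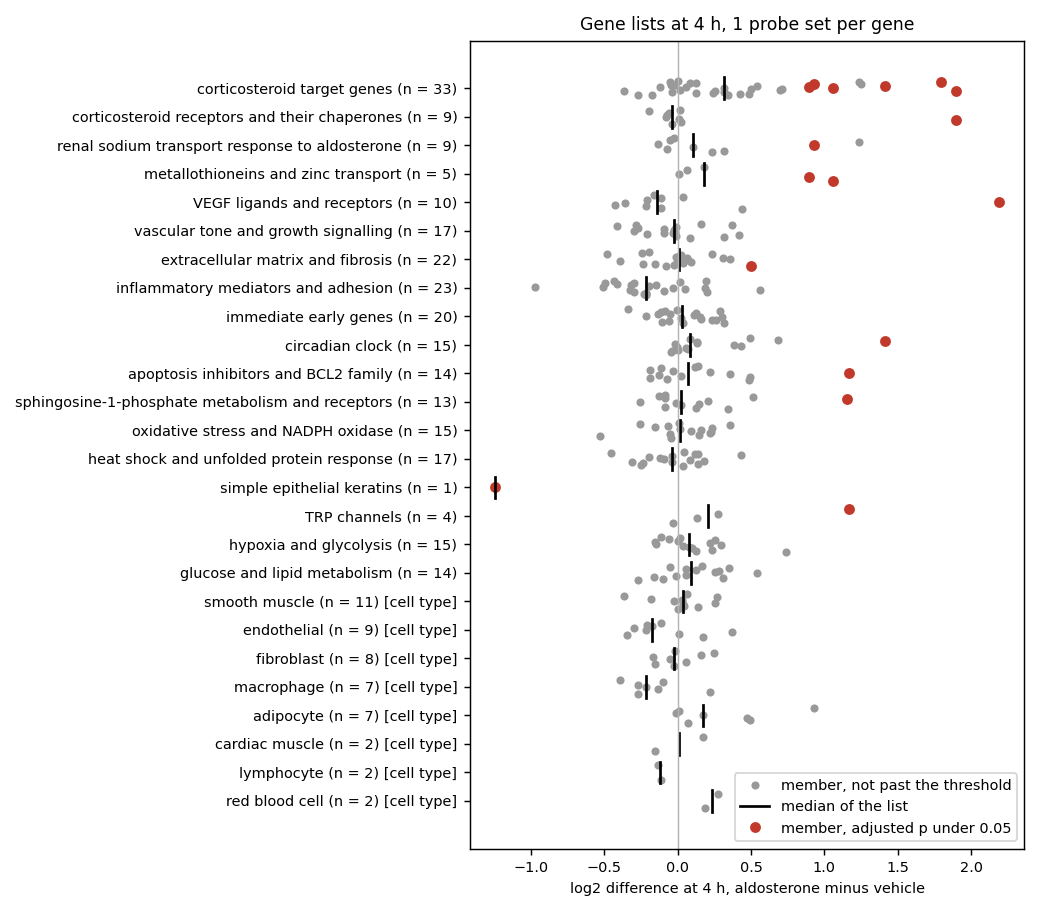
Rows are the gene lists and cell type marker lists, with 1 probe set per gene; points are log2 differences at 4 h (aldosterone minus vehicle, horizontal axis), red where the adjusted p was under 0.05, and vertical bars are list medians. The corticosteroid target list has its median at 0.32 and 6 red points, the inflammatory list its median at -0.21 with none. The lists were chosen with earlier results of these data known.

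Inflammatory mediators and adhesion molecules had 0 of 23 measured members past the test in either direction, with 4 below 0 at an unadjusted p under 0.05 (limma). Of all probe sets tested, 3.67% reached that unadjusted level in either direction. There were 6 above 0 and 17 below, and a median of -0.21 beside 0.01 for all genes. Macrophage markers had a median of -0.21, with 6 of 7 below 0, and endothelial markers -0.17, with 6 of 9 below. Fat cell and smooth muscle markers had medians above 0, at 0.17 and 0.04. All 3 aldosterone samples lay below vehicle for Vcam1 and Ptgs2, 2 of 23, where 4.70% of all genes did so. Vcam1, an adhesion molecule for leukocytes, was at 11.25, 11.16 and 10.91 against 10.82, 10.78 and 10.42 (-0.44 ± 0.19, adjusted p = 1). The cytokine Il1b was at 5.21, 5.67 and 5.90 against 5.77, 3.88 and 4.21 (-0.98 ± 0.42, adjusted p = 1), low in aldosterone replicates 2 and 3 and not in replicate 1. The mean of the macrophage markers was likewise highest in replicate 1 among the aldosterone samples, with replicates 2 and 3 in the opposite order to Il1b, and their part in the values was not tested. Immediate early genes (20 measured), vascular tone genes (17), oxidative stress genes (15), heat shock genes (17), hypoxia and glycolysis genes (15) and glucose and lipid genes (14) had 0 of their 96 genes past the test (limma, 8 at an unadjusted p under 0.05), with medians between -0.04 and 0.09. Adm, the vasodilator adrenomedullin on the hypoxia list, was at 9.30, 9.74 and 9.50 against 10.38, 10.17 and 10.21 without passing (0.74 ± 0.19, adjusted p = 0.28). At this depth of replication the test can miss such sizes. On simulated data of 11538 probe sets it found 20% of changes of 0.5, 81% of changes of 1 and 100% of changes of 2 log2 units. That simulation gave 148 calls beside 27 in the data, so its shares can be higher than in the data.

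23 more probe sets passed when vehicle 2 h replicate 1 was left out, on unchanged differences and a smaller spread. Tgm2, transglutaminase, which crosslinks matrix proteins, had all 5 of its kept probe sets among them, with differences of 0.43 to 0.88. On probe set 1417500_a_at it was at 10.89, 10.91 and 11.01 in vehicle and 11.59, 11.68 and 11.75 with aldosterone (0.74 ± 0.16, adjusted p = 0.0886 with that library and 0.00144 without). Trp53inp1, a stress-induced partner of p53, was at 9.13, 8.59 and 9.10 against 10.04, 9.85 and 10.68 (1.25 ± 0.29, adjusted p = 0.132 and 0.0111). Spsb1, a ubiquitin ligase adaptor, gave 0.68 ± 0.16 (0.145 and 0.00656) and Tbl1xr1, a corepressor subunit, 0.91 ± 0.20 (0.1 and 0.0188). The Tbl1xr1 value came from 1434839_s_at, whose name marks probes that can be shared with other transcripts. The other kept Tbl1xr1 probe set, dim at a mean of 4.29 over the 6 samples of 4 h, gave -0.02. Those below the filter gave 0.04 and 0.09, so the Tbl1xr1 rise rests on that single probe set. Zfp52, Cyth3, Slc25a33 and the unnamed 1416933_at were higher by 0.41 to 0.71. The added falls were Tnk2, Enah and Gja1, the last 2 named after their values were seen. Tnk2, a tyrosine kinase, was at 8.81, 8.81 and 8.72 against 8.25, 8.32 and 8.16 (-0.54 ± 0.12, adjusted p = 0.0859 and 0.00463). Gja1, a connexin of gap junctions, gave -0.54 ± 0.15 (0.438 and 0.0334) and Enah, an actin regulator, -0.43 ± 0.11 (0.195 and 0.033).

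Some differences were large without passing. Edn2, an endothelin, was at 5.54, 5.45 and 5.35 in vehicle and 2.49, 3.85 and 5.00 with aldosterone (-1.66 ± 0.43, adjusted p = 0.29), so the aldosterone samples ranged over more than 2 log2 units. Olr1, an oxidised LDL receptor, was at 7.33, 7.59 and 6.67 against 6.13, 5.91 and 6.16 (-1.13 ± 0.33, adjusted p = 0.466). Kcnn4, a calcium-activated potassium channel, was at 5.28, 5.10 and 4.62 against 4.03, 3.46 and 4.19 (-1.10 ± 0.30, adjusted p = 0.344). In all, 23 probe sets differed by more than 1 upward, 16 of them called, and 8 by more than 1 downward.

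More probe sets differed between times in culture than between treatments: 4241 (36.8%) between vehicle at 2 and 4 h, and 4144 (35.9%) between vehicle at 4 and 8 h. Without vehicle 2 h replicate 1 these counts were 4335 (37.6%) and 5294 (45.9%). Both of these comparisons share the vehicle 4 h samples with the hormone comparison, so levels are given side by side and no relation is drawn. The mean log2 level of Sgk1 was 12.65, 11.26 and 10.90 in vehicle at 2, 4 and 8 h, and 12.66, 12.19 and 11.66 with aldosterone. For Per1 the vehicle means were 7.93, 5.95 and 5.97 and the aldosterone means 8.49, 7.36 and 7.46, and for Zbtb16 they were 8.65, 7.88 and 6.23 against 8.63, 9.67 and 9.05. Krt18 was higher at each later time: 6.73, 8.68 and 10.09 in vehicle and 6.19, 7.44 and 8.81 with aldosterone. Mt2 was at 12.46, 13.09 and 13.80 in vehicle and 13.22, 13.98 and 14.74 with aldosterone. These vehicle means at 2 h include replicate 1, the library that stood apart. It was the highest of its group for Per1 (8.55, beside 7.51 and 7.71) and Krt18 (7.11, beside 6.82 and 6.27). The same held for Mt2 (12.95, beside 12.30 and 12.14), but not for Sgk1 and Zbtb16.

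**Figure D5:**
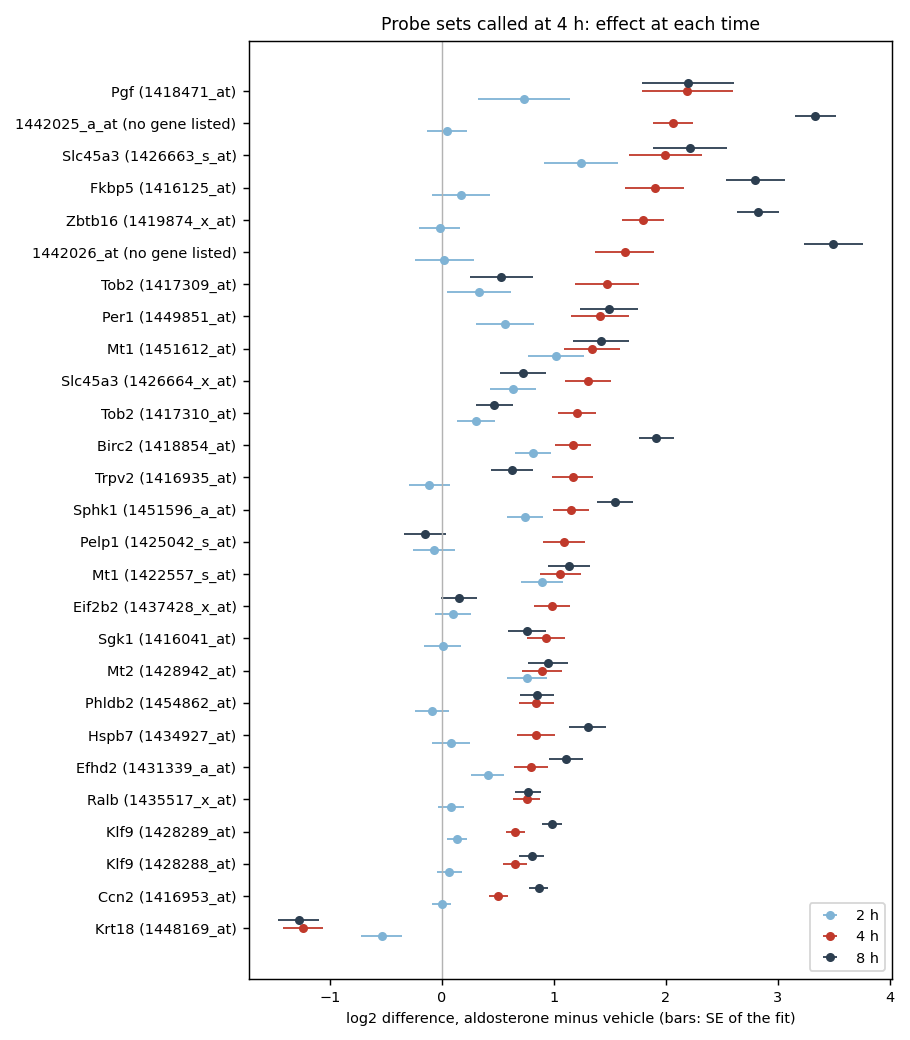
For each probe set called at 4 h, points are the log2 difference (aldosterone minus vehicle, horizontal axis) at 2, 4 and 8 h and bars the SE of the fit. The 2 h points include vehicle 2 h replicate 1. At 2 h, 9 points lie more than 0.5 to the right of 0, those of Mt1, Mt2, Slc45a3, Birc2, Sphk1, Pgf and Per1. At 8 h, 7 points are nearer 0 than at 4 h: both of Tob2, 1426664_x_at of Slc45a3, and those of Sgk1, Trpv2, Eif2b2 and Pelp1.

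The same 11538 probe sets gave 5 calls at 2 h (0.0433%; 36, or 0.312%, without vehicle 2 h replicate 1) and 108 at 8 h (0.936%; 179, or 1.55%, without it). The hormone comparisons at the 3 times share no samples, though they share the estimate of spread. Of the 27 calls at 4 h, 0 were called at 2 h (limma, 10 with an unadjusted p under 0.05). Vehicle 2 h replicate 1 enters the 2 h differences themselves, and the overlap with 2 h is not given without it. At 8 h, 21 of the 27 were called in the same direction, which is 77.8% of the 4 h calls and 19.4% of those at 8 h. Over the 26 that rose, the median difference was 0.15 at 2 h, 1.16 at 4 h and 1.04 at 8 h, the 4 h value being the one that chose them. The 2 h median includes vehicle 2 h replicate 1. The difference between times was itself called for 2 of the 27 against 2 h: Zbtb16, from -0.02 to 1.80 (adjusted p = 0.00957), and 1442025_a_at, from 0.05 to 2.06 (adjusted p = 0.00387). Against 8 h it was called for 0 of the 27 (limma, 11 of them at an unadjusted p under 0.05, and 352 of all 11538), although Fkbp5 went from 1.90 to 2.80 and Zbtb16 from 1.80 to 2.82. The 6 not called at 8 h were both Tob2 probe sets, 1 of Slc45a3, Trpv2, Eif2b2 and Pelp1, at -0.15 to 0.72 there. Over all 11538, the change of effect was called for 3 probe sets between 2 and 4 h (0.0260%) and for 5 between 4 and 8 h (0.0433%). The first count was 6 without vehicle 2 h replicate 2 and 3 without vehicle 2 h replicate 1. The latter count was 1 without aldosterone 4 h replicates 2 or 3 or aldosterone 8 h replicate 2, and 2 without vehicle 4 h replicate 2 or aldosterone 8 h replicate 1. It was 3 without vehicle 4 h replicates 1 or 3, vehicle 8 h replicate 2 or aldosterone 2 h replicates 1 or 3, and 6 without vehicle 2 h replicate 1.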

How the data were processed

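The deposited values are on a log2 scale and come from GCRMA, per the submitters' processing notes, with no version or settings stated; raw array files were not used here. GCRMA subtracts an estimated background, so values near or under 4 carry little signal and folds of dim probe sets are imprecise. Genes were named from GEO's annotation of the platform and promoter windows came from RefSeq (GRCm38.p6).

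Using limma 3.58.1 (R 4.3.3), each of the 6 groups was given its own mean in 1 fit to the 18 arrays, and eBayes used an intensity trend; 12 residual degrees of freedom gave 1 spread per probe set (median SD 0.236, or 0.191 without vehicle 2 h replicate 1). Probe sets with log2 above 4 in 3 or more of the 6 samples at 4 h were tested, 4 of them kept through the aldosterone group alone and 7 through the vehicle group alone. Benjamini-Hochberg adjustment ran over all 11538; an adjusted p under 0.05 was called, whatever the fold. Differences are aldosterone minus vehicle ± SE, 3 samples against 3, and intervals are 95%. In gene lists each gene was represented by its brightest kept probe set over the 18 samples. Named by rule were every gene called, the corticosteroid genes Nr3c1, Nr3c2, Hsd11b1, Hsd11b2, Fkbp5, Tsc22d3, Per1, Sgk1, Zbtb16 and Klf9, up to 4 members of each list by p, the calls made without vehicle 2 h replicate 1 (15 by p) or between times, and the 10 largest differences not called whose groups did not overlap. Members, lists and motifs were chosen with earlier results of these data known. On simulated data of 11538 probe sets, drawn with independent normal noise, the 4 h test made 7 false calls among 148. The number of arrays limits precision.

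Replicate numbers recur in each group; the deviations of same-numbered samples at 4 h correlated by -0.0421, 0.286 and -0.0236, so the numbers were not taken as pairs. Alternatives were other filters, no trend, quantile normalization, median centring, array weights, the replicate number as a block, only the samples of the times compared, 1 probe set per gene, and each array left out.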

Additional observations from a re-analysis of the deposited data

Results flagged for a closer look

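In 8 probe sets the effect of aldosterone at 4 h differed from that at another time by the test of the difference itself (limma, adjusted over 11538 probe sets). Between 2 and 4 h the effect rose by 2.01 for the unnamed 1442025_a_at (adjusted p = 0.00387) and by 1.82 for Zbtb16 (adjusted p = 0.00957). For Chac1, an enzyme that breaks down glutathione, it changed by -1.62, from 1.38 at 2 h to -0.24 at 4 h, with the vehicle 2 h mean at 2.91, under the filter level. Relative to 8 h, the 4 h effect was lower by -2.58 for 1452426_x_at (0.88 at 4 h, 3.46 at 8 h) and by -3.73 for 1449525_at (0.48 and 4.21), both without a gene listed. Plxna2, a semaphorin receptor, differed by -1.35 (-0.04 at 4 h, 1.31 at 8 h) and Fgl2, a secreted fibrinogen-like protein, by -0.89 (0.18 and 1.07). The probe set 1436737_a_at, with no gene listed either, differed by -1.11 (0.10 and 1.21). Groups of 3 samples were not tested for outlying samples.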

How the results depend on the processing

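The count of 27 at 4 h became 17 with 1 probe set per gene (fewer are tested), 68 with array weights and 14 with only the samples of 4 h, and ran from 8 to 50 as single arrays were left out; the cause of these shifts was not tested. Trend, filters, quantile normalization, median centring and the replicate block left it within 1.5 times. The 3 probe sets whose effect differed between 2 and 4 h became 5 with no filter, 5 with array weights and 1 with only the samples of those times, and 3 to 6 with an array left out. The 5 that differed between 4 and 8 h became 3 with no trend, 11 with no filter, 9 with the filter over 18 samples, 1 with 1 probe set per gene, 21 with array weights, and 1 to 6 with an array left out. No named value changed sign past the threshold under the alternatives run. With the replicate number as a block, 27 probe sets were called at 4 h, 25 of them shared, and the calls for Pgf (adjusted p = 0.0534) and Hspb7 (adjusted p = 0.0787) ended; the block gave 3 and 5 for the differences between times. The fits without 1 of the 11 arrays of 2 and 8 h other than vehicle 2 h replicate 1 were added after seeing the data. Signal near 4 limits what dim probe sets such as Pelp1 can show.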

Other observations

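Beyond the calls, moderate differences leaned upward: of the probe sets not called, 192 were more than 0.5 log2 units higher with aldosterone and 136 more than 0.5 lower, while the median over all 11538 was 0.01.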
